A study of Mus musculus with 12 samples.

Results

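The genes that encode the enzymes which write and erase histone acetylation were examined in a pair of mouse melanoma lines that differ in Kmt2d. They were the acetyltransferase genes Ep300, Crebbp, Kat2a and Kat2b and the deacetylase genes Hdac1, Hdac2, Hdac3, Hdac4 and Hdac5, a set of 9 chosen by name from 21887 protein-coding genes. Chromatin immunoprecipitation followed by sequencing (ChIP-seq) had been done in line 971, labelled wild type (WT) for Kmt2d, and in line 493, labelled Kmt2d mutant, with 1 library per line for each of 4 histone marks and 4 input libraries. The inputs of each line are labelled for AEF and for C, and the labels do not say which marks these letters stand for. Both are melanoma cultures grown in serum-containing DMEM/F12 with penicillin and streptomycin. The labels do not give the mutation, how it arose, or the tumours of origin. Each genotype is 1 cell line, so the effect of the genotype and other differences between the lines cannot be told apart, and no difference below has a replicate check or a p-value.

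Kmt2d encodes a methyltransferase that deposits H3K4me1 at enhancers. H3K27ac, the acetyl mark of active enhancers and promoters, is written by p300 and CBP, the closely related products of Ep300 and Crebbp, which KMT2D-containing complexes work with at enhancers. GCN5 and PCAF, from Kat2a and Kat2b, act mainly on H3K9 as subunits of the SAGA and ATAC coactivator complexes. HDAC1 and HDAC2 are paired catalytic subunits of the NuRD, Sin3 and CoREST corepressors, and HDAC3 works in NCoR complexes. HDAC4 and HDAC5 are class IIa enzymes that shuttle between nucleus and cytoplasm and repress MEF2 targets. H3K4me3 marks active promoters and H3K27me3 marks Polycomb repression.

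The values are peaks called by the authors. Lists held 17373 and 3649 H3K4me1 peaks in the WT and the mutant line, 26415 and 18751 H3K27ac peaks, and 23154 and 17987 H3K4me3 peaks. The mutant H3K27me3 list (1300 peaks) is named as called against the WT H3K27me3 library and so would hold regions higher in the mutant, while the WT list (25394 peaks) is named as called against input, so their coverage was not compared. Read depth is unknown, and a longer list covers more of any locus. As a check of the melanoma label, H3K4me3 lay at a gene end of 3 of 7 melanocyte lineage markers in the WT line (Mitf, Pax3 and Pmel) and of 5 of 7 in the mutant line (also Sox10 and Mlana), with Tyr and Dct unmarked in both. None of 3 keratinocyte or 2 endothelial markers was marked. Col1a1 and Pdgfra, of 3 fibroblast markers, and Cd68, of 2 immune markers, were marked in both lines. Gene-end H3K4me3 was common, at 56.4% (WT) and 56.7% (mutant) of all protein-coding genes. With so few markers, its presence or absence at them therefore cannot decide whether the melanoma label holds. The part of these marker differences between the lines in the results below was not tested.

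The first question was whether the 9 genes carried active marks at their ends in both lines. Either end was counted, so a mark at a gene end need not lie at the promoter. H3K4me3 lay within 1 kb of a gene end at 8 of 9 genes in the WT line and at the same 8 in the mutant line, where 56.4% and 56.7% of all protein-coding genes had it and 55.0% had it in both. Hdac4 was the exception. H3K27ac lay at a gene end of 5 genes in the WT line (Ep300, Crebbp, Hdac1, Hdac2 and Hdac5) and of 3 in the mutant line (Ep300, Crebbp and Hdac1), against 28.7% and 19.5% of all genes. Ep300, Crebbp and Hdac1 thus had it in both lines (12.6% of all genes). Hdac2 and Hdac5 had gene-end H3K27ac in the WT line alone, a state shared by 16.1% of all genes, and no member had it in the mutant line alone (6.84% of all genes). H3K4me1 lay at a gene end of Kat2a in the mutant line and of no member in the WT line (2.27% and 4.21% of all genes, with 1.79% in the mutant line alone). No member had H3K27me3 at a gene end in either list (9.94% of all genes in the WT list and 0.219% in the mutant list).

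**Figure D1:**
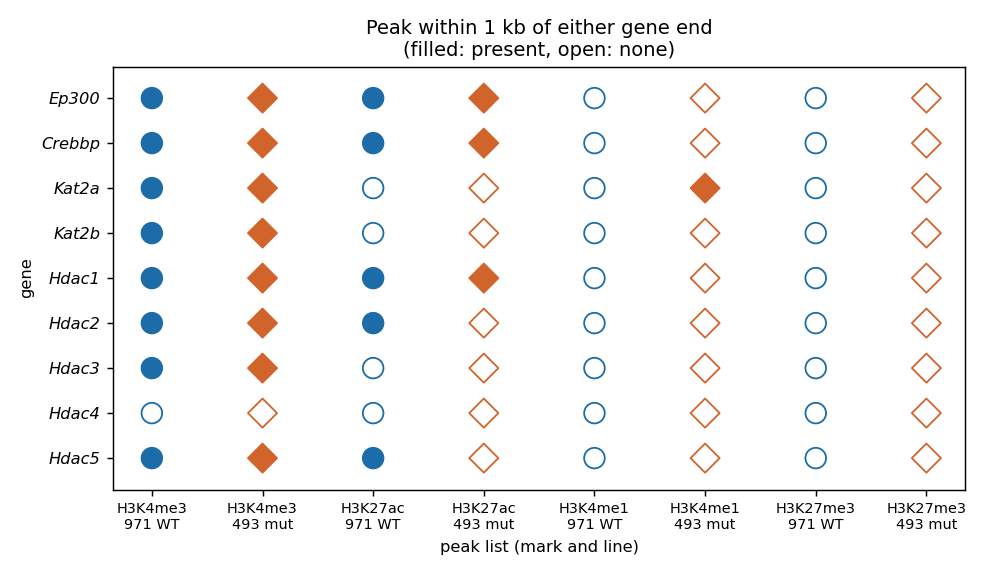
Presence of a peak within 1 kb of either end of each gene (rows) in each of the 8 peak lists (columns, mark and line). Filled circles (line 971, WT) and filled diamonds (line 493, mutant) mark presence and open symbols absence. H3K4me3 is filled for the same 8 genes in both lines, and H3K27ac is filled for 5 genes in the WT and 3 in the mutant line.

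Gene-end patterns of this kind were common among all genes. Ep300, Crebbp and Hdac1 shared one pattern over 7 lists (all but mutant H3K27me3), with H3K4me3 and H3K27ac in both lines, which 2408 of the other protein-coding genes also had. Hdac2 and Hdac5 shared theirs with 2850 genes, and Kat2b and Hdac3, with H3K4me3 alone in both lines, theirs with 3558. The pattern of Kat2a was the least common, with 98 other genes.

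The Hdac4 result depended on where its promoter was taken to be. The RefSeq table of promoters for GRCm38.p6 (the assembly of mm10) held 7 of the 9 genes, Hdac1 and Hdac3 being absent from it. Its Hdac4 start, on the minus strand at position 92180341 of chromosome 1, lies 15361 bp inside the gene model. H3K4me3 covered that start in the WT line with 1 peak of 3690 bp and in the mutant line with 1 of 2051 bp, followed 150 bp upstream by 1 of 1225 bp. H3K27ac peaks of 98 bp lay 586 bp from the start in the WT line and 991 bp from it, just inside the 1 kb limit, in the mutant line. By listed starts, 7 of 7 genes had H3K4me3 in both lines (57.6% and 58.2% of 17492 genes with a listed start), and H3K27ac was present at 5 of them (WT line, beside 30.2%) and at 3 (mutant line, beside 20.5%), where Hdac4 took the place of Hdac1.

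The 250 bases before the listed start are shown for the 5 genes whose start had H3K27ac nearby in at least 1 line, since these are the stretches where the lines matched or differed. They come from the RefSeq promoter table, are written 5′ to 3′ on the strand of the gene, and are Ep300 (plus strand, chr15:81585964-81586213), Crebbp (minus strand, chr16:4213405-4213654), Hdac2 (plus strand, chr10:36974294-36974543), Hdac4 (minus strand, chr1:92180342-92180591) and Hdac5 (minus strand, chr11:102230173-102230422). Capitals mark GGGCGG, the core bound by SP and KLF factors, on either strand in all 5 and also CCAAT on either strand in Hdac4 and Hdac5.
Ep300: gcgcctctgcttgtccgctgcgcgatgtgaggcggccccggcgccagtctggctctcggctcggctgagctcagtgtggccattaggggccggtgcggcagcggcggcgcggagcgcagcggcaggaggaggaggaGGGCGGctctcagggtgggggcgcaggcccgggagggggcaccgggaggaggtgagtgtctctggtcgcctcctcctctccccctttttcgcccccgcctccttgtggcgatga
Crebbp: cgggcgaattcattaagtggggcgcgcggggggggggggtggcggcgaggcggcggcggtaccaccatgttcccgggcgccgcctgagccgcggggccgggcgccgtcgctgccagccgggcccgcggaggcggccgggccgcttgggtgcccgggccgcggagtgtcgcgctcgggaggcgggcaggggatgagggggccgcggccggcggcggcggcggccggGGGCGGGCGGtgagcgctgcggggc
Hdac2: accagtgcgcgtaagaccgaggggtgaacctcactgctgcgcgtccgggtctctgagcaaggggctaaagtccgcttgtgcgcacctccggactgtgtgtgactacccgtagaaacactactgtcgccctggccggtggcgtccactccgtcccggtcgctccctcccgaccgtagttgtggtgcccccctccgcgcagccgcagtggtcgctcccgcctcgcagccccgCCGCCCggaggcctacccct
Hdac4: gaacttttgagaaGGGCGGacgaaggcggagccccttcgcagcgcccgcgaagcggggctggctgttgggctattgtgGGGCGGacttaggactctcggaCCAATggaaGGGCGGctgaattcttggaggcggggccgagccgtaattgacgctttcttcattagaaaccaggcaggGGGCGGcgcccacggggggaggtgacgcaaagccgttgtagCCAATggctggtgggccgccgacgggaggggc
Hdac5: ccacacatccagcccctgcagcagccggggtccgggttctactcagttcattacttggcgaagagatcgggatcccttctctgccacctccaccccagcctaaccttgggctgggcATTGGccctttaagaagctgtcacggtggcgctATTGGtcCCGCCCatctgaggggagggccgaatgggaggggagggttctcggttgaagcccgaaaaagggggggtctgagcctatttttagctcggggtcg

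All 5 stretches lay within H3K4me3 in the WT line over their full 250 bases. In the mutant line H3K4me3 also covered all 250 bases at 4 of them and 198 bases at Hdac4. H3K27ac peaks covered 240 bases of the Hdac2 stretch and 108 bases of the Ep300 stretch in the WT line and none of either in the mutant line. The other stretches had no H3K27ac-covered base in either line, their peaks lying farther off.

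Over the full 300-base promoter windows of the table (250 bases before and 50 after the start), GC content was 82.0% for Crebbp, higher than in 99.5% of 32851 promoters, whose median was 52.7%. It was 72.3% for Ep300, 69.7% for Hdac2, 68.0% for Hdac4, 60.7% for Hdac5 and 54.3% for Kat2a. Kat2b was the AT-rich member, with 47.0% at its outer start and 48.3% at an inner one that had no H3K4me3 or H3K27ac peak within 1 kb in either line. CpG dinucleotides stood at 1.02 times their expected number in Crebbp, 1.01 in Hdac2 and 0.982 in Hdac4, against a median of 0.384 over all promoters. The ratio was 0.864 in Kat2a, 0.796 in Ep300 and 0.660 in Hdac5. In Kat2b it was 0.672 at the outer start and 0.357, below that median, at the inner one. GGGCGG occurred in 5 of the 7 genes, with 5 occurrences in Hdac4, beside 35.7% of all promoters, and CCAAT in 3 (Kat2b, Hdac4 and Hdac5) beside 37.4%. The motif counts are per gene and the shares per promoter. GC content was not matched, and the 5 genes with GGGCGG had 60.7% to 82.0%, above the median, so no enrichment is read from the counts. Of the other motifs searched on both strands, CACGTG was found in Hdac5 (7.15% of promoters) and the AP-1 motif TGANTCA in Kat2b (7.81%), whereas CATGTG (14.2%), the cyclic AMP response element TGACGTCA (1.79%), the ETS core CCGGAA (14.9%) and the NRF1 motif (0.971%) were not found in these windows. CACGTG is the E-box bound by MITF and related factors. In Hdac5 it began 4 bases into the transcript, and it is in capitals in the first 30 bases of that transcript (minus strand, chr11:102230143-102230172).
Hdac5 from the start: ggtCACGTGacgagagtgacgtctccgaat

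Coverage around the genes was then compared, as the bases under peaks within 50 kb of either gene end. A gene is called lower or higher in the mutant line where the 2 lines differ by at least 2-fold, a value of 0 in 1 line included. H3K27ac was lower in the mutant line at 5 of 9 genes (Ep300, Hdac2, Hdac3, Hdac4 and Hdac5) and higher at none. Among the 16324 protein-coding genes with any H3K27ac in the window, 44.9% were lower and 11.7% higher, so 5 of 9 is near the background. The median difference, mutant minus WT, was -358 bp for the 9 genes and -160 bp over all genes. It was lower by any amount at 7 of 9 (72.6% of genes). With H3K27ac lists of equal length, 3 members were lower (Ep300, Hdac2 and Hdac3; 33.2% of genes) and 1 was higher (20.2%). Of the 5 genes called lower, 4 were deacetylase genes (of 5) and 1 was an acetyltransferase gene (of 4), a difference between enzyme classes that was not tested. Among the other genes of these classes, described below, the split went the other way. There, 3 of 9 deacetylase genes with any H3K27ac and 5 of 9 acetyltransferase genes were lower.

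**Figure D2:**
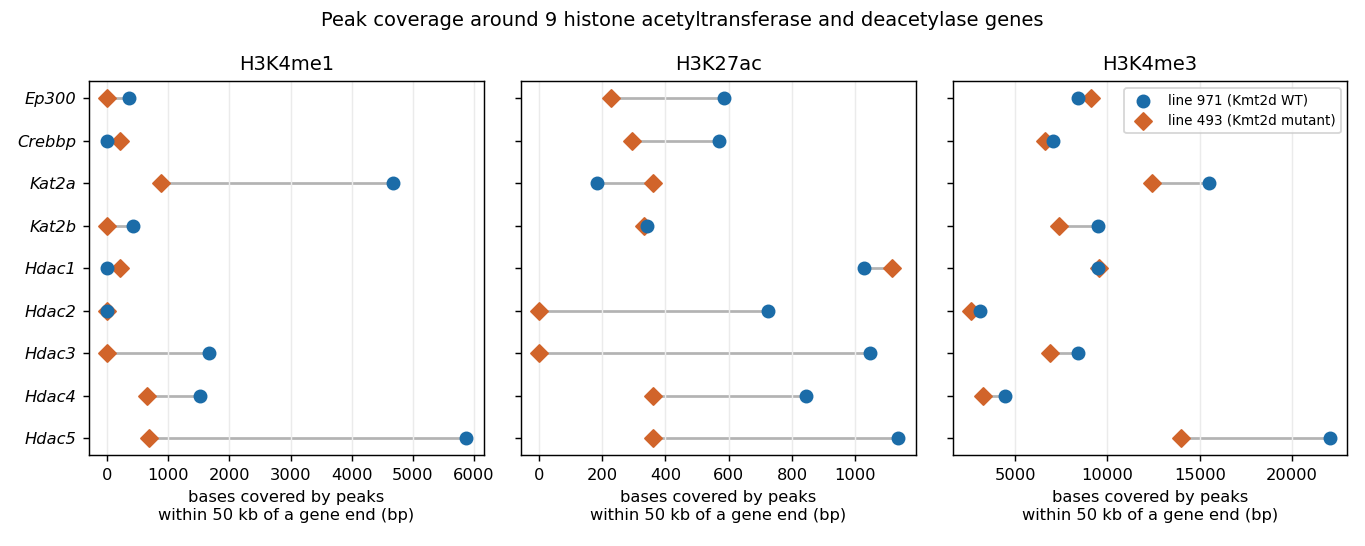
Bases covered by peaks of H3K4me1, H3K27ac and H3K4me3 (x axes, bp) within 50 kb of the ends of each of the 9 genes (y axis) in line 971 (circles, Kmt2d WT) and line 493 (diamonds, Kmt2d mutant), 1 library each, with a line joining the values of a gene. H3K27ac is at 0 in the mutant line for Hdac2 and Hdac3, and Hdac5 has the widest gap for H3K4me1 and H3K4me3.

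H3K4me1 was lower in the mutant line at 6 of the 8 genes that had any (Ep300, Kat2a, Kat2b, Hdac3, Hdac4 and Hdac5) and higher at 2 (Crebbp and Hdac1), whereas Hdac2 had none in either line. Over 11079 genes, 71.9% were lower and 14.0% higher, and 80.5% were lower by any amount, as these 6 members were. With both H3K4me1 lists cut to the same number of peaks, 1 member was lower and 4 were higher, as 36.1% and 50.8% of genes were. The direction of the H3K4me1 counts thus depended on list length, for the members and for all genes. Within the same 50 kb, H3K4me3 differed by 2-fold or more at no member (4.49% of genes lower, 2.69% higher). It was lower by any amount at 7 of 9 (70.3% of genes), with Ep300 and Hdac1 as the exceptions.

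Ep300 (chromosome 15, 81586209 to 81652077), which encodes p300, had its H3K27ac at the promoter. The WT line had 1 peak of 586 bp (81585486 to 81586071) ending 138 bp before the gene, with the authors' enrichment over input at 7.03-fold, stronger by p-value than 96.2% of the WT list. In the mutant line a peak of 132 bp (81585568 to 81585699) lay inside that stretch, at 6.02-fold and stronger than 82.4% of its list. Both lines thus had a peak at this place, the mutant one narrower. The median H3K27ac peak was 116 bp wide in the WT list and 107 bp wide in the mutant list. With a second mutant peak of 96 bp at the end of the neighbouring gene L3mbtl2, window totals were 586 bp and 228 bp, 2.57-fold higher in the WT line. H3K4me3 at the start was 4809 bp wide in the WT line and split into 3779 bp and 1085 bp in the mutant line, and the window total was higher in the mutant line (8427 bp and 9113 bp). H3K4me1 was a single WT peak of 359 bp inside the gene.

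Crebbp (chromosome 16, 4081334 to 4213957), which encodes CBP, was just outside the call for H3K27ac, with 570 bp in the WT line and 293 bp in the mutant line (1.95-fold), while Hdac4 and Ep300 were the nearest inside it. At its start the WT peak was 340 bp wide (6.96-fold over input) and overlapped the gene end, and the mutant peak was 116 bp wide (6.04-fold) and lay 394 bp outside it. The remaining H3K27ac lay at the end of the next gene, Trap1, in both lines. H3K4me3 at the start was 3647 bp wide in the WT line and 4007 bp in the mutant line. The only H3K4me1 was a mutant peak of 207 bp near Trap1. Counted over the whole gene with 50 kb on each side, H3K4me1 was 223 bp in the WT line and 207 bp in the mutant line, so Crebbp is not counted among genes with more H3K4me1 in the mutant line on that basis.

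Kat2a (chromosome 11, 100704746 to 100712485), which encodes GCN5, is a short gene with 6 other genes ending in its window. H3K4me1 totalled 4673 bp in the WT line and 885 bp in the mutant line (5.28-fold), and no WT peak had a mutant counterpart within 1 kb. The 4 WT peaks lay upstream of the start, from 7178 bp to 18182 bp away, and a WT H3K4me3 peak of 2243 bp overlapped the nearest 2 of them, with no mutant counterpart. The 2 mutant H3K4me1 peaks lay instead at the gene ends, at distances of 747 bp and 936 bp, just inside the 1 kb limit, and the first of these also lay 272 bp from an end of Dhx58. The H3K4me1 of this gene thus sat in different places in the lines. H3K27ac also sat apart, with 2 WT peaks (185 bp in all) by the upstream H3K4me1 and 3 mutant peaks (360 bp in all) at the end of Rab5c. That left Kat2a at 1.95-fold more in the mutant line, just outside the call. With lists of equal length no WT H3K4me1 remained in the window and the difference turned, to 885 bp more in the mutant line.

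Kat2b (chromosome 17, 53566774 to 53672721), which encodes PCAF, differed least in H3K27ac among the acetyltransferase genes. The 343 bp in the WT line and 334 bp in the mutant line came from 3 peaks each, and each had a counterpart within 1 kb. H3K4me3 at its start was 4922 bp wide in the WT line and 4399 bp in the mutant line, and a further WT peak of 974 bp inside the gene had no mutant counterpart. H3K4me1 was 418 bp in the WT line and 0 bp in the mutant line.

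**Figure D3:**
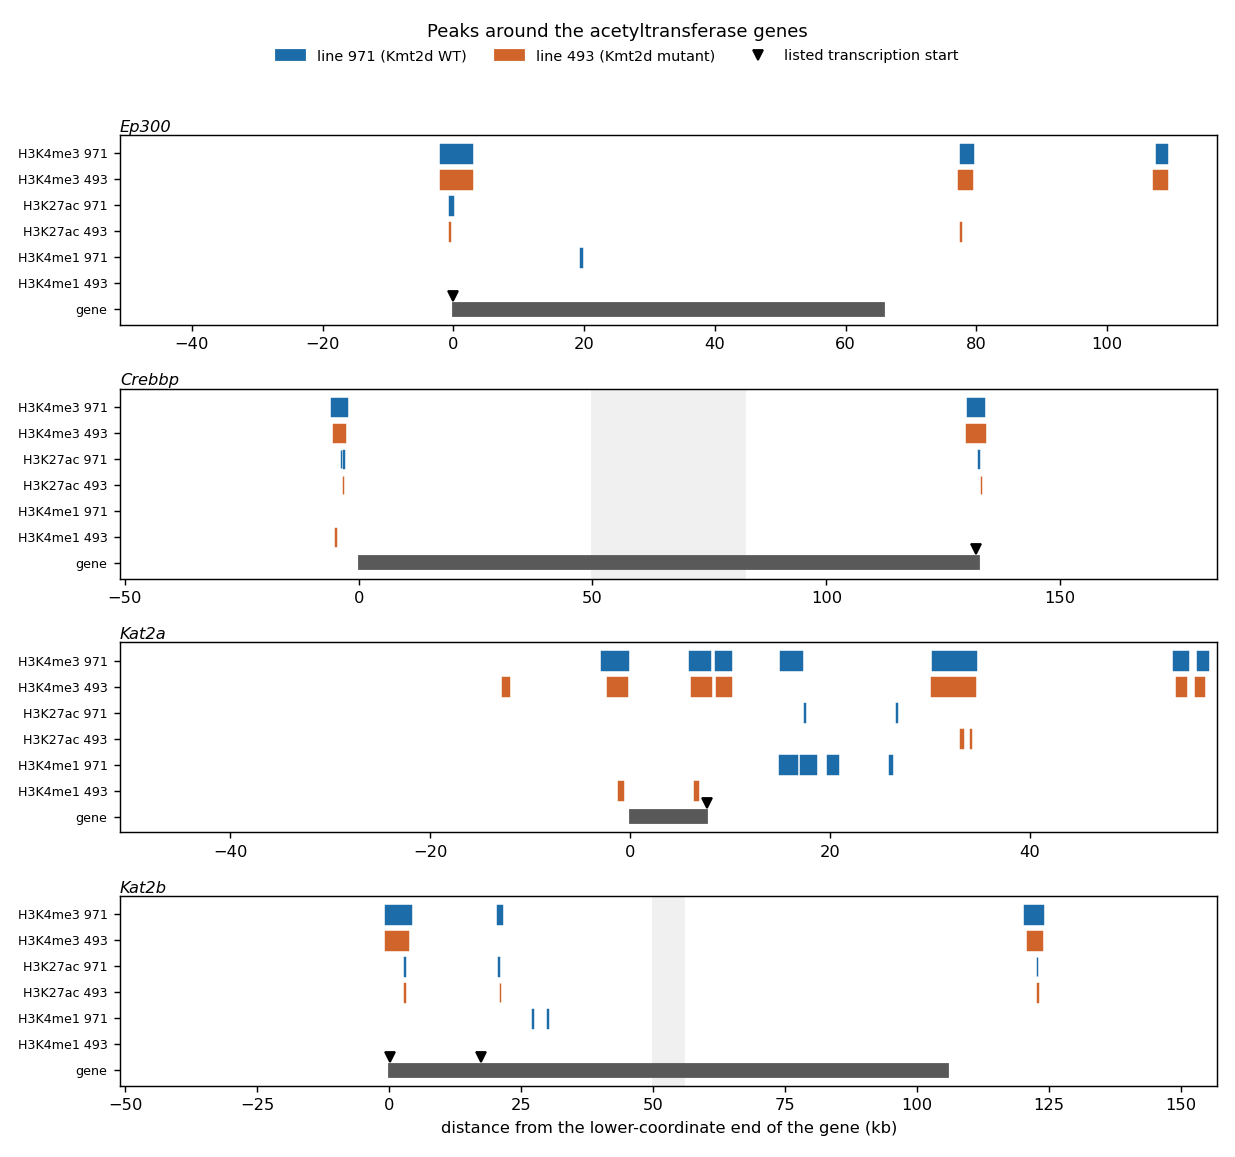
Peaks of H3K4me3, H3K27ac and H3K4me1 (rows) in line 971 (blue, WT) and line 493 (orange, mutant) around the 4 acetyltransferase genes, by distance from the lower-coordinate end of the gene (x axis, kb). The grey bar is the gene, triangles are starts listed by RefSeq, and shaded stretches lie over 50 kb from both ends and were not searched. At Kat2a the 4 WT H3K4me1 peaks lie to the right of the gene and the 2 mutant peaks at its ends.

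Among the class I deacetylases, Hdac1 (chromosome 4, 129516104 to 129542646) was the member with the most H3K27ac in the mutant line. It had 1026 bp in 9 WT peaks and 1116 bp in 8 mutant peaks, more than 93.3% and 98.8% of all genes. At the upper gene end the WT peaks were 125 bp and 89 bp wide and the mutant peaks 89 bp and 215 bp. H3K4me3 was equally close, with 9518 bp and 9548 bp in 5 peaks each. Hdac1 shared its window with 7 other genes, and without peaks at their ends H3K27ac was 850 bp in the WT line and 889 bp in the mutant line. A mutant H3K4me1 peak of 206 bp lay 1396 bp from the gene end, and within 100 kb the WT line had slightly more H3K4me1 (1251 bp and 1238 bp).

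Hdac2 (chromosome 10, 36974297 to 37001889) had no other protein-coding gene ending in its window. Its WT H3K27ac consisted of 2 peaks at the gene start, 323 bp (36974304 to 36974626, 5.69-fold over input) and 402 bp (36974759 to 36975160, 4.58-fold), which were stronger than 65.5% and 20.4% of the WT list. The mutant line had no H3K27ac peak in the window. H3K4me3 at the same start was 2709 bp wide with a score of 2815 in the WT line and 2592 bp wide with a score of 1901 in the mutant line, so the promoter mark was present in both. This state of the Hdac2 end, WT only, was also found at a distance of 2.5 kb, after matching list lengths, and among the more significant 50% of peaks.

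Hdac3 (chromosome 18, 37936971 to 37955015) also had WT H3K27ac and none in the mutant line, but not at its own ends. The WT line had 6 peaks of 88 bp to 440 bp, 1045 bp in all, more than 93.7% of genes. The widest lay 298 bp from an end of Diaph1, the next gene, and without peaks at ends of other genes 517 bp remained. H3K4me1 likewise was 1671 bp in 4 WT peaks and 0 bp in the mutant line. H3K4me3 at the upper end of Hdac3, in a peak that also reached the end of Rell2, was 3080 bp wide in the WT line and 3245 bp in the mutant line. Some H3K27ac in the WT line and none in the mutant line, the state of Hdac2 and Hdac3, was found at 15.9% of genes with any. It was less frequent among genes with much WT coverage. Of 3780 genes with at least the WT coverage of Hdac2, 3.94% had none in the mutant line, and of 1369 genes with at least that of Hdac3, 2.70% had none. These cut-offs came from the same genes, which were singled out for having none in the mutant line. The shares therefore do not measure how unusual Hdac2 and Hdac3 are.

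The class IIa gene Hdac4 (chromosome 1, 91928779 to 92195702) is the longest of the 9, at 266924 bp, and no other gene ended in its window. H3K27ac was 844 bp in 7 WT peaks and 360 bp in 3 mutant peaks (2.34-fold). A peak 167 bp wide in the WT line and 89 bp wide in the mutant line lay at the same place inside the gene. The call depended on the setting. Within 20 kb of the gene ends the values were 638 bp and 360 bp, over the whole gene 1025 bp and 593 bp, and in lists of equal length 422 bp and 360 bp, all short of 2-fold. Within 100 kb they were 1037 bp and 360 bp, and in the more significant 50% of peaks 304 bp and 0 bp, both past it. H3K4me1 was 1525 bp in the WT line and 651 bp in the mutant line, and in the more significant 50% of each list it was 296 bp and 651 bp.

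Hdac5 (chromosome 11, 102195747 to 102230172), the other class IIa gene, had the most WT coverage of the 9 for all 3 marks called against input in both lines. H3K4me1 was 5866 bp in the WT line, more than 97.1% of genes, and 691 bp in the mutant line (8.49-fold). Of its 10 WT peaks, 9 lay inside the gene (5650 bp), from 3062 bp to 27357 bp after the start, and 1 of the 2 mutant peaks did (238 bp). H3K4me3 followed the same interior, with 7 WT peaks and 10081 bp inside the gene, start included, against 3 mutant peaks and 3356 bp. The WT peak of 2331 bp (102216868 to 102219198, score 1830) faced a mutant peak of 571 bp with a score of 65.2 there. At the start itself H3K4me3 was 3221 bp wide with a score of 2117 in the WT line. In the mutant line it was 2583 bp wide with a score of 2779. The scores given here and at Hdac2 rest on p-values, and read depth is unknown. They do not show whether a place was more strongly marked in either line. In lists of equal length H3K4me1 was 1303 bp and 691 bp, which no longer met the call.

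H3K27ac at Hdac5 was 1134 bp in 9 WT peaks and 362 bp in 2 mutant peaks (3.13-fold). The gene-end peak of the WT line (102230506 to 102230673) was 168 bp wide and lay 334 bp upstream of the start. It was stronger than 33.6% of the WT list and was lost in the more significant 50%. Both mutant peaks lay beyond the 3′ end, by the genes Tmem101 and G6pc3. With lists of equal length the window held 713 bp and 362 bp of H3K27ac, and in the more significant 50% it held 369 bp and 228 bp, both short of 2-fold.

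**Figure D4:**
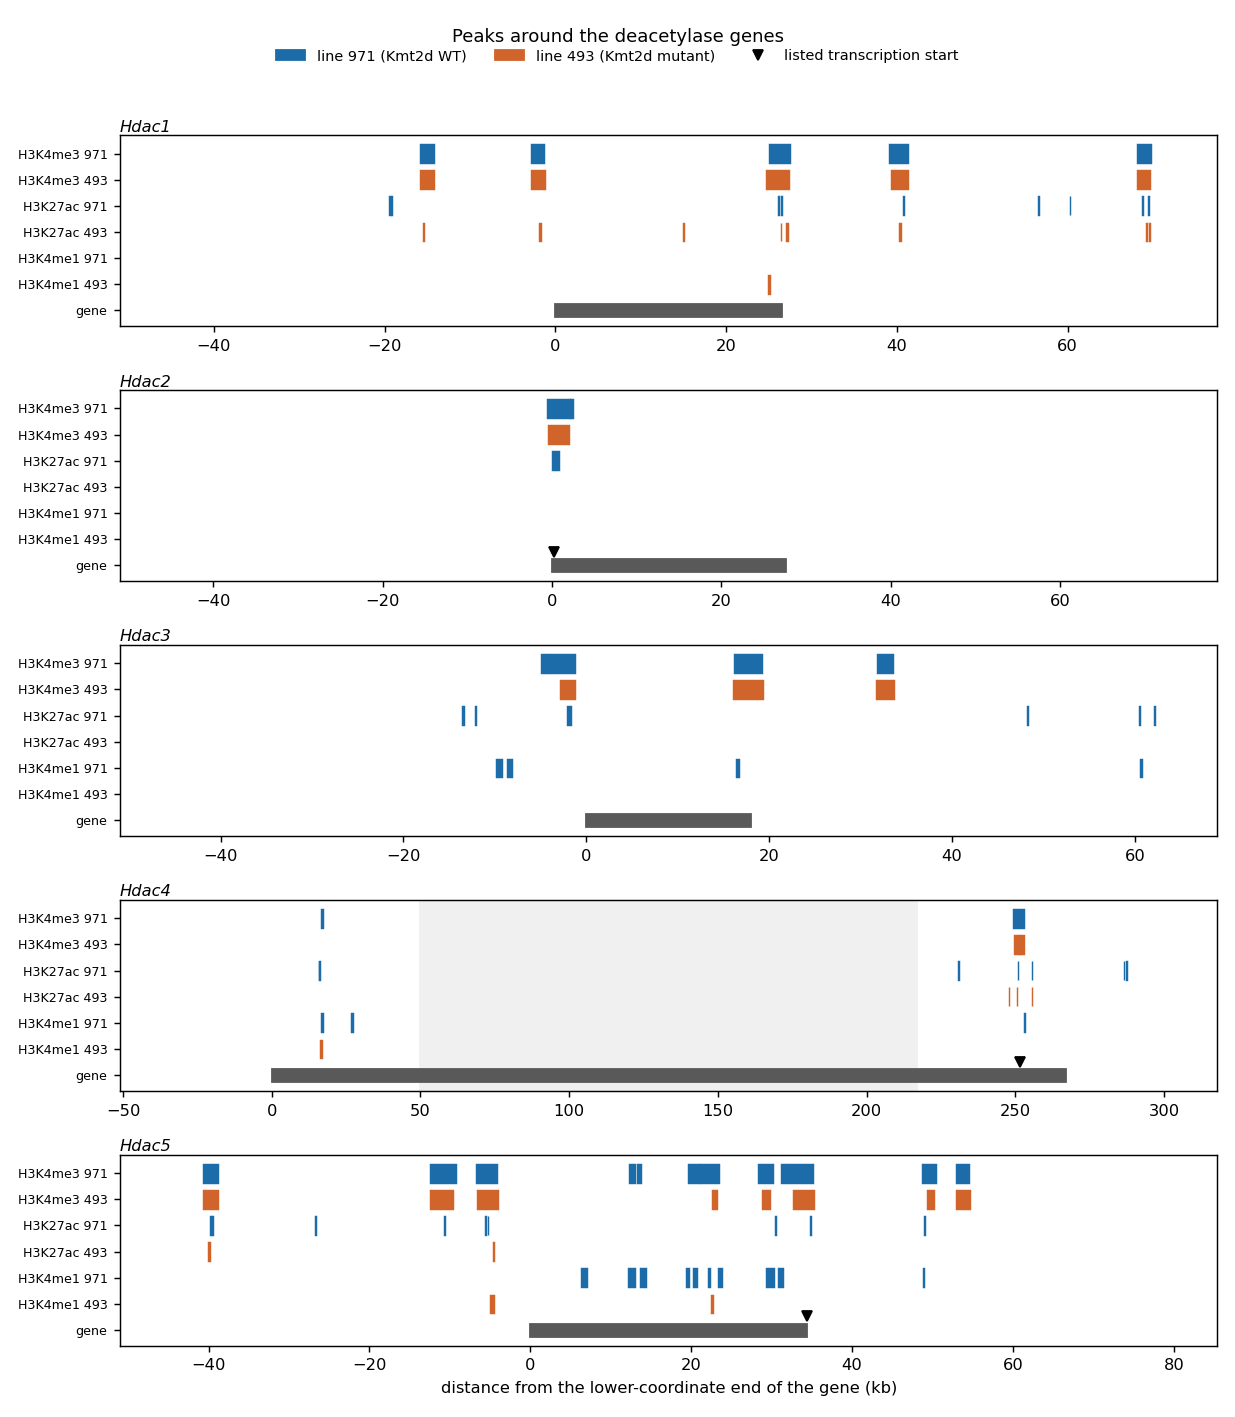
Peaks of H3K4me3, H3K27ac and H3K4me1 (rows) in line 971 (blue, WT) and line 493 (orange, mutant) around the 5 deacetylase genes, by distance from the lower-coordinate end of the gene (x axis, kb), with gene bars, starts and shading as in the map of the acetyltransferase genes. The mutant H3K27ac rows are empty at Hdac2 and Hdac3, and the WT H3K4me1 peaks of Hdac5 are spread over the gene.

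Peak by peak, the share of peaks in the 9 windows with a counterpart in the other line was counted for each active mark. This share depends on the length of the other list and on peak width, so the marks are not ranked by it. The H3K4me1 lists held 17373 WT and 3649 mutant peaks. In the WT lists the median peak was 1609 bp wide for H3K4me3 and 116 bp for H3K27ac. A mutant peak lay within 1 kb of 34 of 41 WT H3K4me3 peaks, 82.9% (exact 95% binomial interval 67.9% to 92.8%), beside 75.7% of the whole list. For H3K27ac it was 18 of 42, or 42.9% (27.7% to 59.0%), against 30.1% of the list, and for H3K4me1 3 of 24, or 12.5% (2.66% to 32.4%), against 11.6%. From the mutant side the shares were 97.1% of 34 H3K4me3 peaks (84.7% to 99.9%), beside 92.7% of the list, and 65.2% of 23 H3K27ac peaks (42.7% to 83.6%), beside 38.8%. For H3K4me1 the share was 28.6% of 7 peaks (3.67% to 71.0%), beside 47.2% of the list. The H3K27ac share from the mutant side was 47.8% in lists of equal length and 34.8% by 1 bp of overlap. Peaks of 1 window are not independent (8 of the 23 mutant H3K27ac peaks lay around Hdac1), the lists span the whole genome rather than windows around genes, and the intervals cover counting error only, so no difference from the lists is read from them. Of the WT H3K27ac peaks 54.8% and of the mutant ones 82.6% overlapped H3K4me3 of their own line, beside 42.1% and 34.8% of the lists.

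The windows also hold other genes. Of the 42 WT H3K27ac peaks, 7 lay at a gene end of the member, 10 at the end of another protein-coding gene, 7 elsewhere inside the member, 17 between genes and 1 at a listed start. Of the 23 mutant peaks, these numbers were 4, 7, 5, 6 and 1. Without peaks at ends of other genes, every call of a lower or higher H3K27ac or H3K4me1 for the members that met 2-fold still met it. Crebbp was then lower in the mutant line for H3K27ac too (340 bp in the WT line, 116 bp in the mutant line). So was Kat2a (185 bp and 0 bp), whose difference had gone the other way with those peaks counted. Kat2a, Hdac3 and Hdac5 were then lower for H3K4me3. The share of all genes was not computed for this setting, and it also drops peaks at the members' own ends. The H3K4me3 peak at the upper end of Hdac3 was dropped because it reaches Rell2, which left 416 bp of H3K4me3 in the WT line and 0 bp in the mutant line.

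H3K27me3 occurred in the WT list around 3 of the 9 genes, Kat2a (4129 bp in 6 peaks), Hdac4 (2794 bp in 7 peaks) and Hdac5 (2271 bp in 2 peaks), where 42.4% of all genes had some within 50 kb. At Hdac5 both peaks lay near Nags, a urea cycle gene, 47077 bp and 48734 bp beyond the gene end and so just inside the window. No region of the mutant list lay in any of the 9 windows, where 5.77% of all genes had one.

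The other genes of histone acetylation were described in the same way, from 5 lists with 69 genes in all. H3K27ac was lower by 2-fold or more in the mutant line at 26 of the 66 with any (39.4%, beside 44.9% of all genes) and higher at 3 (4.55%, beside 11.7%), with a median difference of -238 bp. H3K4me1 was lower at 32 of 51 (62.7%, beside 71.9%) and higher at 6 (11.8%, beside 14.0%). Gene-end H3K4me3 was present at 65 of 69 in both lines (55.0% of all genes) and differed at none. Gene-end H3K27ac was WT-only at 18 (16.1% of all genes) and mutant-only at 7 (6.84%).

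**Figure D5:**
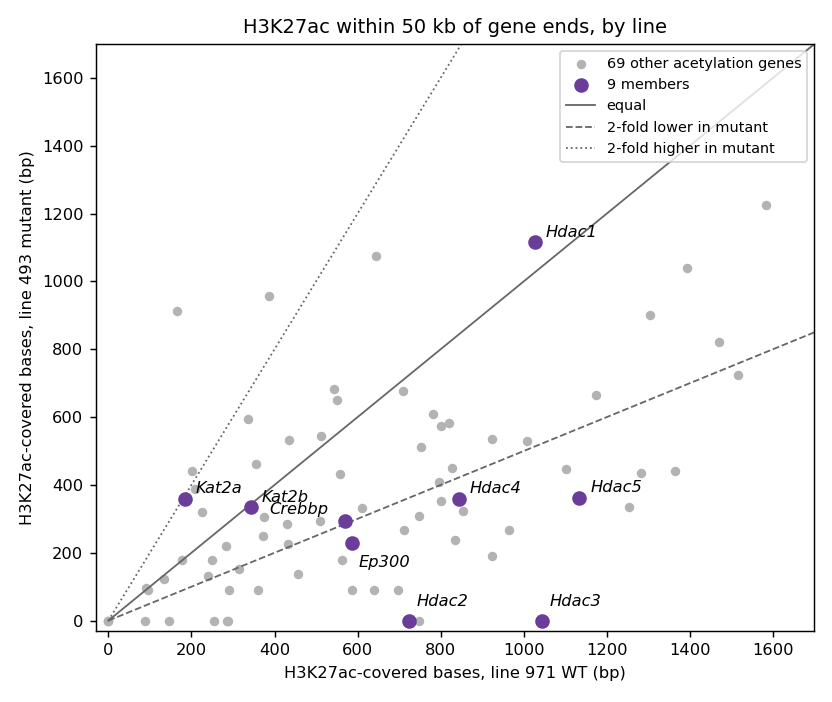
H3K27ac-covered bases within 50 kb of gene ends in line 971 (x axis, bp) and line 493 (y axis, bp) for the 9 members (purple, named) and 69 other acetylation genes (grey), 1 library per line. The solid line is equality and the broken lines are 2-fold differences. Hdac2 and Hdac3 sit at 0 in the mutant line and Hdac1 sits near equality.

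Of 9 other acetyltransferase genes, 5 had lower and 1 higher H3K27ac. Kat7, the catalytic subunit of HBO1 complexes, had 1253 bp in the WT line and 336 bp in the mutant line, and Kat8, the H4K16 acetyltransferase, 1515 bp and 723 bp. Gene-end H3K27ac was WT-only at 3 of the 9 and mutant-only at 2. The steroid receptor coactivator gene Ncoa3 had 3770 bp of H3K4me1 in the WT line and 0 bp in the mutant line.

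Of 11 other deacetylase genes, H3K27ac was present around 9, lower at 3 and higher at 1. Sirt6, a sirtuin, had more in the mutant line (386 bp in the WT line, 956 bp in the mutant line), and Sirt2 had less (639 bp and 89 bp). Hdac7, a class IIa gene like Hdac4 and Hdac5, had 9886 bp of H3K4me1 in the WT line and 0 bp in the mutant line, and H3K4me3 of 19612 bp and 10396 bp. Hdac11, the class IV gene, had 6603 bp and 0 bp of H3K4me1, and with 7426 bp and 2019 bp it was the 1 gene of the 69 whose H3K4me3 was lower by 2-fold or more.

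Subunits and readers showed H3K27ac differences mostly in the same direction as all genes. In 19 acetyltransferase complex genes H3K27ac was lower at 7 and higher at none, with Brpf1, the scaffold of MOZ complexes, at 1364 bp in the WT line and 441 bp in the mutant line and Trrap, a SAGA and NuA4 subunit, at 1283 bp and 436 bp. In 22 of 23 deacetylase corepressor genes with any H3K27ac it was lower at 8 and higher at none. Ncor1, a scaffold of HDAC3 complexes, had 964 bp in the WT line and 267 bp in the mutant line. At their own gene ends, however, Trrap and Ncor1 had H3K27ac in the mutant line alone. Gene-end H3K27ac was WT-only at 5 and mutant-only at 3 of the acetyltransferase complex genes. Among the corepressor genes it was WT-only at 7 and mutant-only at 2. Of 7 acetyl-lysine reader genes, 3 were lower and 1 higher in H3K27ac. Mllt3, a YEATS reader gene, had 166 bp in the WT line and 914 bp in the mutant line.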

How the data were processed

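The data are 8 peak lists, 1 per ChIP library, on mm10, per the submitters' processing notes, which name FastQC, MultiQC and MACS2 without versions. Which aligner and filters were used, and to what depth, is not given in the sources used here. Per the file names, lists were called against the input of the same line, except mutant H3K27me3, which was called against WT H3K27me3. The deposited values are a fold enrichment (ratio) over control, −log10 p and −log10 q, and, for H3K4me3, a p-based score as the older MACS writes it. Scores saturate, since 4304 WT and 3223 mutant H3K4me3 peaks share the value 3100. The smallest −log10 p in the WT and mutant lists was 3.86 and 3.92 for H3K27ac and 5.01 and 5.03 for H3K4me1. For H3K4me3 it was 5.00 in both, so the presence of different marks rests on different cut-offs. The deposited summit position (an offset in bases) was not used.

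Peaks on the 19 autosomes, X and Y were kept. Gene ends of 21887 protein-coding genes came from RefSeq GRCm38.p6, without strand, and starts from its promoter table. Covered bases were counted once each within 50 kb of either end, with Python 3.11.15 and pandas 2.3.3, in code tested on simulated data. Ranks are shares of a list with a smaller p-based value. The 9 members and the lists were chosen with earlier results of these data known. All members are described, and of the other lists up to 2 genes per mark with the largest difference in covered bases are named, while those whose gene-end state differed are counted. Not all of them are printed. Alternatives were gene ends of 2.5 kb, listed starts, windows of 20 kb, 100 kb and the whole gene, a fold of 1.5, lists of equal length, the more significant 50% of each list, peaks away from other genes, and other counterpart distances.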

Additional observations from a re-analysis of the deposited data

How the results depend on the processing

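No paired analysis was possible because each line and mark has 1 library. Of the recomputed counts and shares, 81 stayed within 1.5 times the reported count or inside the reported interval, and 19 did not. The intervals are wide, and counts of 0 that remained 0 are among the 81. A counterpart share that went from 28.6% to 14.3% (mutant H3K4me1, 1 bp overlap) also counted as staying. The tally is therefore a loose measure of stability. With lists of equal length, members with lower H3K4me1 numbered 1 and with higher H3K4me1 4, members with lower H3K27ac 3 and higher 1, the counterpart share of WT H3K4me1 peaks was 50% (2 of 4), and other acetylation genes with lower H3K4me1 numbered 12. In the more significant 50%, members with higher H3K27ac numbered 1, counterpart shares of H3K4me1 were 0% from both lines, and other acetylation genes with lower H3K4me3 numbered 8. Members with higher H3K4me1 numbered 0 within 100 kb and 1 over the whole gene. At a fold of 1.5, members with higher H3K27ac numbered 1 and with lower H3K4me3 1, and without peaks at ends of other genes, some of them also at the members' own ends, members with lower H3K4me3 numbered 3. Gene ends of 2.5 kb gave H3K4me1 at 1 member in the WT and 2 in the mutant line. By 1 bp overlap, counterpart shares for H3K27ac were 19% from the WT and 34.8% from the mutant line.

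Single H3K4me1 differences, mutant minus WT, turned at Crebbp (-3062 bp within 100 kb, -16 bp over the whole gene), Hdac1 (-13 bp within 100 kb), Kat2a (885 bp in lists of equal length) and Hdac4 (355 bp in the more significant 50%, 651 bp in lists of equal length). The cause was not tested. Of 13 called differences, the H3K27ac ones of Ep300, Hdac2 and Hdac3 met 2-fold in each of the 6 recomputations run for them. Depth is unknown, so absence of a peak does not show absence of the mark.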
